A study of Mus musculus with 2 samples.

Results

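The antioxidant enzymes described here are 10 genes whose products remove superoxide, hydrogen peroxide and lipid peroxides: the superoxide dismutases Sod1, Sod2 and Sod3, catalase (Cat), the glutathione peroxidases Gpx1, Gpx3 and Gpx4, and the peroxiredoxins Prdx3, Prdx5 and Prdx6. They were matched by gene name and Ensembl identifier, not by any measured value, and all 10 were found, each under a single identifier, among the 55536 genes of the tables. The data are total RNA-seq of heart tissue from adult female 5xFAD/CAST mice aged 8 to 10 months, prepared from 300 ng of RNA per library. There were 2 libraries in 1 group, replicates 1 and 2, with 45599940.0 and 40801299 expected counts. Both carry the same strain label: 5xFAD is a line with mutant human transgenes driven by the neuronal Thy1 promoter, CAST is a wild-derived strain, and no control group was analysed here. Per the labels they are biological replicates 1 and 2, each with technical replicate number 1, and are different biosamples with 1 shared donor identifier. Whether they come from 2 animals is not clear from the labels. An SD over n = 2 therefore measures the spread between these libraries alone, which may be technical.

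Superoxide leaks from the respiratory chain and from oxidases, and superoxide dismutases convert it to hydrogen peroxide. Catalase, glutathione peroxidases and peroxiredoxins then reduce peroxides, with glutathione or thioredoxin as electron donors for most of the peroxidases and NADPH as the final source. The enzymes are set apart by compartment, because superoxide crosses membranes poorly. Heart muscle is rich in mitochondria, and mice without Sod2 die young with a dilated heart.

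Levels are given in TPM, a transcript abundance relative to all others and divided by length, with spike-ins left out of the total, as mean ± SD of n = 2. The authors deposited 2 kinds of table: one derived from alignments to the transcriptome, used unless stated otherwise, and one derived directly from the reads, called the direct table below. In both libraries 7 of 7 cardiomyocyte markers, Myh6 and Tnnt2 among them, were present at 357 TPM or more, so the label heart held. In bulk tissue, fewer cells of a type and less RNA per cell cannot be told apart.

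All 10 genes were detected, and their levels spanned from 4.11 ± 0.532 TPM for Sod3 to 371 ± 11.5 TPM for Gpx4. From high to low the order in the alignment-based tables was Gpx4, Sod2, Prdx5, Sod1, Prdx3, Gpx3, Prdx6, Cat, Gpx1 and Sod3. Only Gpx3 and Prdx6 overlapped as neighbours in this order. In the direct tables Sod2 (356 ± 15.1 TPM) lay above Gpx4 (338 ± 10.2 TPM), Sod1 (236 ± 0.818 TPM) above Prdx5 (194 ± 7.57 TPM) and Prdx6 (115 ± 5.83 TPM) above Gpx3 (108 ± 3.78 TPM), so the order holds for 1 kind of table. The median level of the 10 genes was 118.7 TPM, against 7.79 TPM over the 10771 nuclear protein-coding genes that reached 1 TPM in each library. Among those genes Gpx4 ranked 128 and Sod2 145, while Gpx1 ranked 1809 and Sod3 7592. Together the 10 genes held 0.494% and 0.478% of nuclear protein-coding TPM in replicates 1 and 2.

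**Figure D1:**
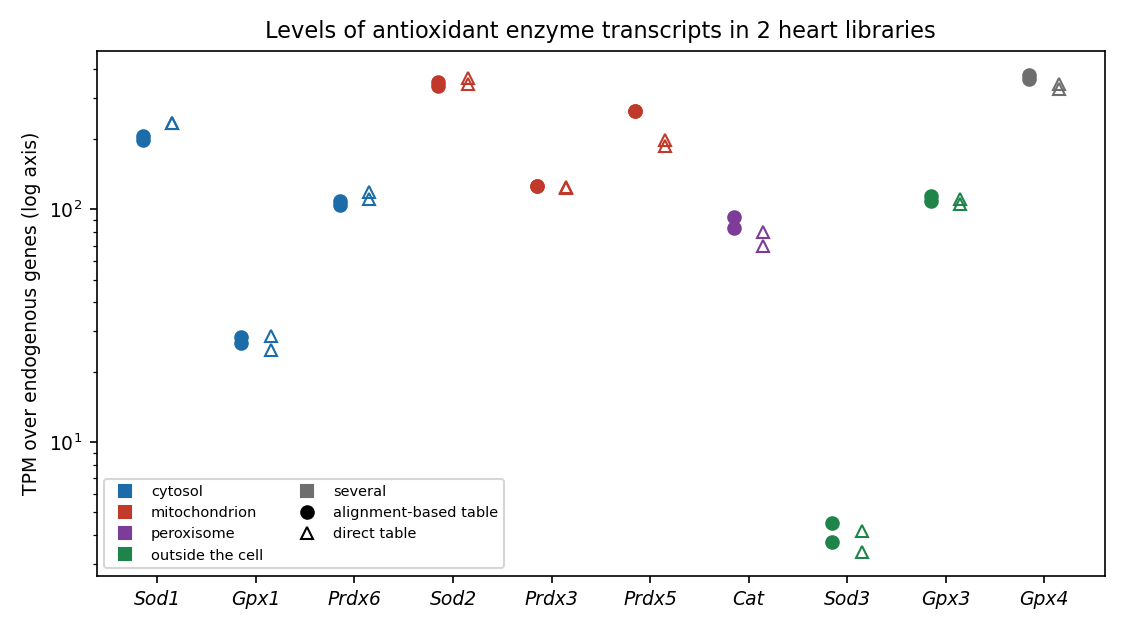
TPM over endogenous genes (log axis) of the 10 genes, coloured by compartment, with 1 point per library; filled circles are the alignment-based table and open triangles the direct table. In the alignment-based table Gpx4, Sod2 and Prdx5 lie highest, Sod3 lies lowest in both, and the kinds of table lie farthest apart for Prdx5, at 265 ± 0.964 against 194 ± 7.57 TPM.

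In the cytosol, Sod1 (ENSMUSG00000022982.10, mm10 chr16:90220754-90226329, plus strand), the copper and zinc superoxide dismutase, was listed at 206 TPM in replicate 1 and 199 TPM in replicate 2, from 4395 and 3648 expected counts. Nearly all of it, 99.7% and 99.8% of TPM, lay on the coding transcript Sod1-201. The direct tables placed Sod1 higher, at 235 and 236 TPM. Its neighbour Scaf4, on the opposite strand at 7.68 and 7.22 TPM, overlaps the gene by 650 bases, and whether counting used the strand is not given in the sources used here. Of the 31-base words of all Sod1 transcripts, 5.41% occur in another gene and 5.34% in the pseudogene Gm8566, so few lie in Scaf4. Of the 31-base words of Sod1-201, 35.4% occur in another gene, nearly all of them in the pseudogene Gm8566, listed at 0.262 and 0.261 TPM.

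Gpx1 (ENSMUSG00000063856.7, chr9:108338903-108340343, plus strand), the general glutathione peroxidase of cytosol and mitochondria, stood at 26.8 and 28.4 TPM, from 771 and 710.0 expected counts. By gene level it was the lowest of the 3 cytosolic genes, but over coding transcripts alone it stood at 27.6 ± 1.23 TPM, above Prdx6 at 16.0 ± 1.49 TPM. That value takes in the transcript Gpx1-204, at 14.4 and 14.0 TPM. Gpx1-201 alone stood at 11.9 and 12.7 TPM, beside 11.2 and 12.6 TPM for Prdx6-202. With all counts set over the length of each gene's principal coding transcript, Gpx1 (21.2 ± 1.02 TPM) lay below Prdx6 (53.0 ± 1.51 TPM). By gene level Cat exceeded Gpx1 3.20 ± 0.381-fold in TPM, Gpx3 4.04 ± 0.323-fold and Gpx4 13.4 ± 0.146-fold.

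The 3 glutathione peroxidases carry selenocysteine in the active site, encoded by a TGA that would otherwise end translation. Which transcript a read is given to therefore bears on whether the enzyme it stands for contains that residue. The annotated coding sequences around this codon are shown with 30 bases on each side and the selenocysteine codon in capitals. It is codon 47 of 201 in Gpx1-201 (chr9:108339451-108339453), 73 of 226 in Gpx3-201 (chr11:54907256-54907258) and 73 of 197 in Gpx4-202 (chr10:80054737-80054739), all on the plus strand.
Gpx1-201: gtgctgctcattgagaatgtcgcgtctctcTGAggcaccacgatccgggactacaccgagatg
Gpx3-201: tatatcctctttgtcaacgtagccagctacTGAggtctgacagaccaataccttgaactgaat
Gpx4-202: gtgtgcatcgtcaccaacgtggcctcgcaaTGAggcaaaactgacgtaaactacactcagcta
Of the 60 flanking bases, 32 were identical between Gpx1 and Gpx4, 26 between Gpx3 and Gpx4 and 24 between Gpx1 and Gpx3. None of the 31-base words of Gpx1 transcripts occurred in another gene, and 0.552% of those of Gpx3 did.

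Of Gpx1's TPM, the selenocysteine-containing Gpx1-201 held 44.3% in replicate 1 and 44.6% in replicate 2. The larger share, 53.8% and 49.2%, was given to Gpx1-204, whose annotated coding sequence of 435 bases has no selenocysteine codon. In the direct tables this order was turned, with 55.7% on Gpx1-201 in both libraries and 38.2% and 37.2% on Gpx1-204. Only 3.37% of the 31-base words of Gpx1-204 occur in no other transcript of the gene.

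Prdx6 (ENSMUSG00000026701.15, chr1:161240112-161251219, minus strand), the peroxiredoxin with a single catalytic cysteine that also acts on phospholipids, stood at 105 and 108 TPM from 4602 and 4123 expected counts. Most of this level was assigned to transcripts without the full coding sequence. Prdx6-208, annotated as a target of nonsense-mediated decay, held 59.5% and 58.1% of TPM, and the processed transcript Prdx6-204 held 24.4% and 25.3%.

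The full coding transcript Prdx6-202 held 10.7% and 11.7%. Prdx6-208 lacks a 157-base exon (chr1:161247257-161247413) of Prdx6-202, and its annotated coding sequence ends after 76 codons in place of 224. The junctions that follow the shared exon before it are shown with 15 bases on each side, the downstream exon in capitals, since they are the sequence that tells these forms apart at that exon.
Prdx6-202: tttcctgggagattcATGGGGCATTCTCTT
Prdx6-208: tttcctgggagattcGACATCAATGCTTAC
Only 2.29% of the 31-base words of Prdx6-208 occur in no other Prdx6 transcript, and 97.6% also lie in Prdx6-202. These forms differ in the last exon too, of 835 bases in Prdx6-208 and 1738 bases in Prdx6-202. The direct tables gave the same leading transcript, with 53.9% and 54.1% on Prdx6-208 and 6.41% and 6.17% on Prdx6-202. Summed over coding transcripts alone, Prdx6 came to 16.0 ± 1.49 TPM, against 107 ± 2.59 TPM for the gene. With all its counts set over the length of Prdx6-202, the gene came to 53.0 ± 1.51 TPM, so the level depends on the length used.

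**Figure D2:**
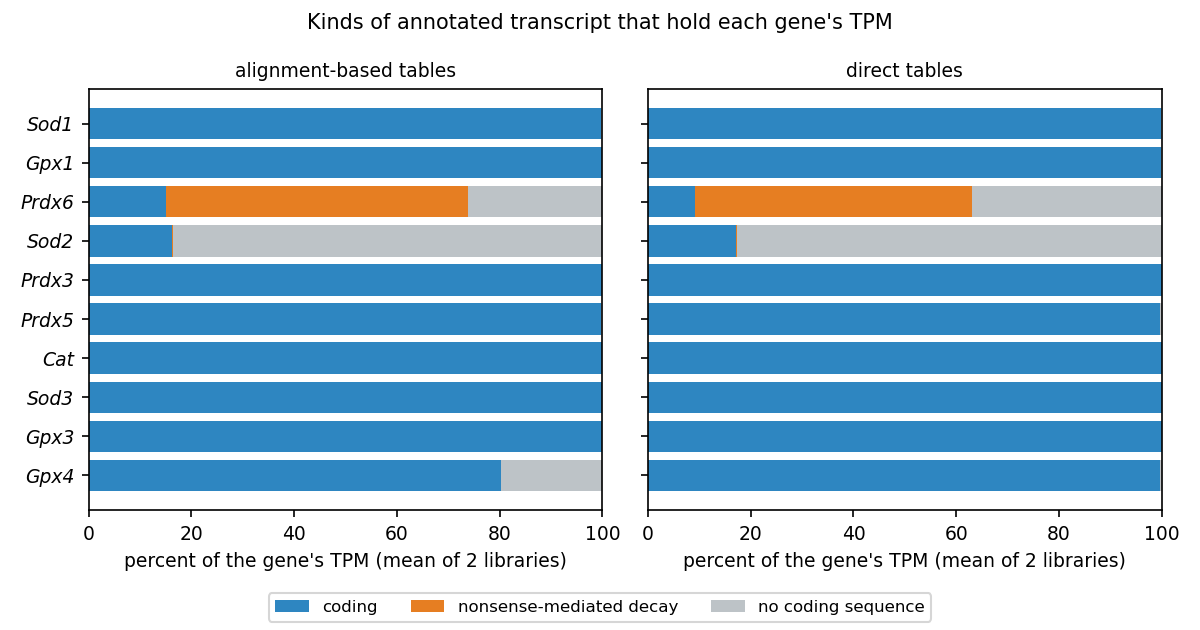
Percent of each gene's TPM (mean of 2 libraries) on transcripts annotated as coding, as targets of nonsense-mediated decay or without a coding sequence, in the alignment-based tables (left) and the direct tables (right). Sod2 and Prdx6 are mostly not on coding transcripts in either kind of table, and Gpx4 is partly so in the alignment-based tables alone.

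In mitochondria, Sod2 (ENSMUSG00000006818.5, chr17:13006846-13040063, plus strand), the manganese superoxide dismutase of the matrix, stood at 337 and 352 TPM from 21889 and 19716 expected counts. By gene level it exceeded Sod1 1.70 ± 0.0880-fold. That order rested on transcripts of different lengths. The coding transcript Sod2-201, with a last exon of 5109 bases, held 55.5% of the gene's counts in both libraries but 16.1% and 16.2% of its TPM.

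The shorter Sod2-207, of 1138 bases with a last exon of 591 bases and no annotated coding sequence, held 56.6% and 57.2% of TPM. The retained-intron transcript Sod2-204, of 644 bases, held 26.7% and 26.1%. Of the 31-base words of Sod2-207, 93.2% also lie in Sod2-201, and 2.44% occur in no other Sod2 transcript. The direct tables gave the same order, with 46.8% and 47.9% on Sod2-207 and 16.0% on Sod2-201 in both libraries.

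Counting coding transcripts only, Sod2 came to 55.6 ± 1.78 TPM and lay at 0.276 ± 0.0149 of Sod1. With all counts of each gene set over the length of its principal coding transcript, Sod2 lay at 0.488 ± 0.0282 of Sod1. Which of the superoxide dismutases had the higher transcript level therefore differed with the length that was used, in both libraries alike. Of the 31-base words of Sod2 transcripts 26.7% occur in another gene, mainly the noncoding RNA AC166110.4 and Rps6ka2 on the same chromosome, but only 3.88% of those of Sod2-201 do.

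Prdx3 (ENSMUSG00000024997.7, chr19:60864051-60874556, minus strand), the mitochondrial peroxiredoxin that draws on thioredoxin 2, had a single annotated transcript. It stood at 126 TPM in each library, from 6756 and 5776 expected counts, and at 124 and 125 TPM in the direct tables. None of its 31-base words occurred in another gene.

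Prdx5 (ENSMUSG00000024953.17, chr19:6906697-6910106, minus strand), a peroxiredoxin found in mitochondria, peroxisomes and cytosol, stood at 266 and 264 TPM from 6316 and 5471 expected counts. The direct tables placed it lower, at 188 and 199 TPM, a ratio of 0.731 and the largest departure among the 10 genes. Its ratio to Prdx3 was 2.10 ± 0.00201 in the alignment-based and 1.55 ± 0.0520 in the direct tables. With all counts set over the length of each gene's principal coding transcript, that ratio was 1.12 ± 0.0103.

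The transcripts of Prdx5 differed as well. In the alignment-based tables Prdx5-205, whose annotated start is incomplete, held 46.7% and 49.2% of TPM, Prdx5-204 26.9% and 23.4%, Prdx5-203 14.5% and 15.4%, and the full-length Prdx5-201 11.5% and 11.9%. In the direct tables Prdx5-203 held 55.7% and 59.5% and Prdx5-201 43.3% and 40.2%, Prdx5-204 was listed at 0, and Prdx5-205 held 0.527% and 0.0155%. Of the 31-base words of Prdx5 transcripts 16.9%, and of those of Prdx5-201 30.8%, lie in Trmt112, a gene on the opposite strand at 12.7 and 13.4 TPM that overlaps its exons by 409 bases.

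Prdx5 reaches several compartments through its ends. The start of the Prdx5-201 coding sequence is shown up to the second in-frame ATG, both ATG codons in capitals, because translation from the first adds the mitochondrial targeting sequence. The second ATG is codon 49 and leaves 162 codons.
Prdx5-201: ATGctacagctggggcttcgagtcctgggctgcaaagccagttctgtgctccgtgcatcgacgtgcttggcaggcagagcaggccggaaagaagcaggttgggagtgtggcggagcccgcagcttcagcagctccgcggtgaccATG
The deposited values are per transcript and do not tell which ATG was used.

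In peroxisomes, Cat (ENSMUSG00000027187.10, chr2:103453849-103485160, minus strand), which splits hydrogen peroxide into water and oxygen, stood at 93.1 and 83.4 TPM from 6847 and 5311 expected counts. Cat-201, the full coding sequence of 527 codons, held 66.4% and 67.0% of TPM, and the shorter coding transcript Cat-202 held 33.6% and 33.0%. In the direct tables Cat-202 held less, 22.4% and 17.8%, and the gene stood at 79.6 and 69.6 TPM. Only 2.67% of the 31-base words of Cat-202 do not occur in Cat-201. None of the 31-base words of Cat transcripts occurred in another gene.

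Peroxisomal import through Pex5 reads the last residues of a protein. The last 10 codons and the stop codon of Cat-201 and Prdx5-201 are shown with the last 3 codons in capitals, because both proteins use this end for import.
Cat-201: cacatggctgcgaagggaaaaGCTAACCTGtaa
Prdx5-201: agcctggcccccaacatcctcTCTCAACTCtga
Pex5, the receptor of this signal, and 7 other genes of peroxisome import and matrix enzymes were all detected. The highest of them were Scp2 (118 ± 0.334 TPM), Acaa1a (27.3 ± 1.73 TPM) and Pex7 (11.3 ± 0.801 TPM), which act in lipid transfer, fatty acid breakdown and import.

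Outside the cell, Gpx3 (ENSMUSG00000018339.11, chr11:54902453-54910377, plus strand), the secreted glutathione peroxidase of plasma, stood at 114 and 108 TPM from 6620.0 and 5400.0 expected counts. Gpx3-201 held 99.8% and 99.9% of its TPM. Kidney is the best known source of this enzyme, and of the 4 kidney markers Umod and Kap were listed at 0 in both libraries, Slc12a1 at 0.0101 TPM and 0, and Cyp4b1 at 8.52 and 7.91 TPM. Their part in the level of Gpx3 was not tested.

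Sod3 (ENSMUSG00000072941.5, chr5:52363791-52371418, plus strand), the extracellular superoxide dismutase that binds to the matrix around vessels, was the lowest of the 10 genes. It stood at 3.73 and 4.49 TPM, from 526 and 545 expected counts on its 1 transcript of 3738 bases. Sod1 exceeded it 49.8 ± 7.55-fold in TPM.

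Gpx4 (ENSMUSG00000075706.10, chr10:80047166-80056439, plus strand), the glutathione peroxidase that reduces lipid peroxides in membranes and guards against ferroptosis, was set apart because its transcripts encode forms for cytosol, mitochondria and nucleus. It stood at 363 and 379 TPM from 9499 and 8305 expected counts. The main transcript Gpx4-202 held 54.8% and 50.6% of TPM, Gpx4-207 25.5% and 28.5%, and the 280-base retained-intron transcript Gpx4-203 18.5% and 20.5%.

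In the direct tables Gpx4-203 was listed at 0 and Gpx4-202 held 91.6% and 81.6%. Gpx4-201, the longest coding sequence at 759 bases, held 0.850% and 0.360% in the alignment-based and 0.966% and 0.596% in the direct tables. Of the 31-base words of Gpx4 transcripts 38.7%, and of those of Gpx4-202 73.6%, lie in the transcribed pseudogene Gpx4-ps2 on the same chromosome. That pseudogene was listed at 41.5 and 32.5 TPM in the alignment-based tables but at 0.807 and 0.426 TPM in the direct tables. Gpx4 itself was also lower in the direct tables, at 331 and 345 TPM, and because of the shared sequence its level is uncertain.

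The start of the Gpx4-202 coding sequence is shown up to the second in-frame ATG, both ATG codons in capitals. Translation from the first gives the mitochondrial precursor, and from the second, codon 28, the cytosolic form of 170 codons.
Gpx4-202: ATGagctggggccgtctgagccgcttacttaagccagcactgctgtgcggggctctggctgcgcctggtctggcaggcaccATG
One transcript thus serves both compartments, and its level is not divided between them here.

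Summed by compartment, the mitochondrial genes Sod2, Prdx3 and Prdx5 came to 736 ± 8.51 TPM, the cytosolic genes Sod1, Gpx1 and Prdx6 to 337 ± 0.809 TPM, Gpx3 with Sod3 to 116 ± 3.73 TPM and Cat to 88.2 ± 6.82 TPM. Gpx4 alone, at 371 ± 11.5 TPM, exceeded the cytosolic sum in the alignment-based tables, and lay below it in the direct tables, at 338 ± 10.2 against 378 ± 9.20 TPM. The mitochondrial sum, with all of Prdx5 counted in it though its product is also found in peroxisomes and cytosol, was the largest in both libraries. Over coding transcripts alone the mitochondrial sum was 446 ± 0.560 TPM, because less of Sod2 is counted. The cytosolic sum was then 246 ± 1.72 TPM, because less of Prdx6 is counted, with the mitochondrial sum still the higher. That lead over coding transcripts rests on Prdx5, at 264 ± 0.644 TPM, beside Prdx3 at 126 ± 0.579 TPM and Sod2 at 55.6 ± 1.78 TPM. In the direct tables the coding transcripts of Prdx5 stood lower, at 187 and 198 TPM, with coding sums of 379 ± 9.90 TPM for mitochondria and 272 ± 4.51 TPM for cytosol. Over the length of the principal coding transcripts Prdx5 came to 141 ± 0.650 TPM, and these sums to 367 ± 3.30 and 280 ± 2.75 TPM.

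By family, superoxide dismutases held 551 ± 6.03 TPM, glutathione peroxidases 510 ± 8.39 TPM and peroxiredoxins 498 ± 1.05 TPM. Over coding transcripts alone the dismutases held the least of these 3 families, with 262 ± 2.12 TPM against 437 ± 1.79 TPM and 406 ± 0.264 TPM.

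**Figure D3:**
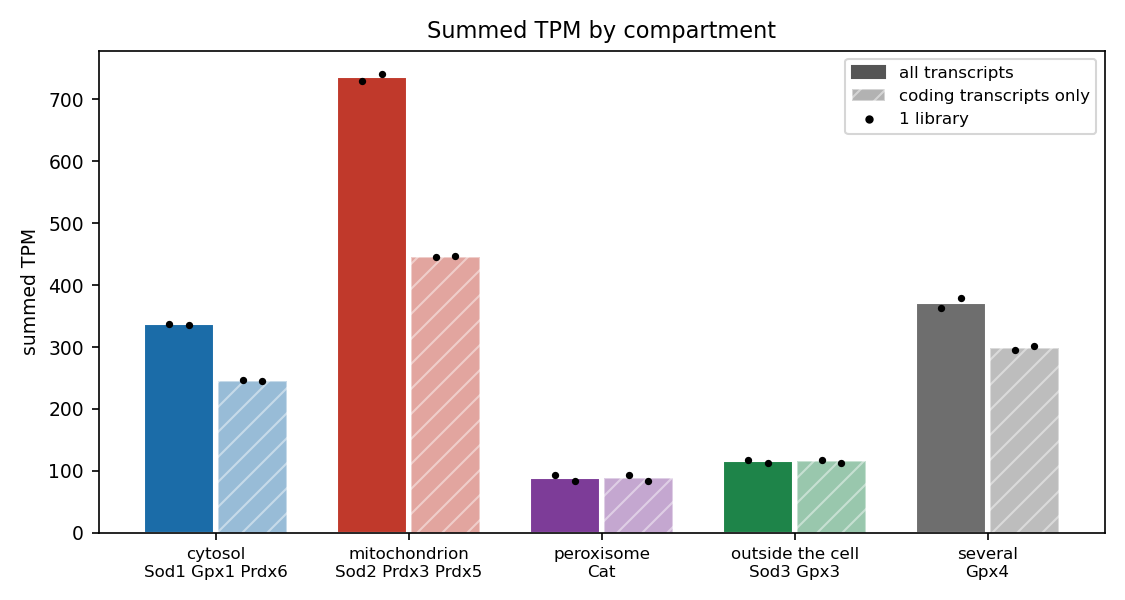
Summed TPM by compartment over all transcripts (solid bars) and over coding transcripts only (hatched bars), as means of 2 libraries with 1 dot per library; Gpx4 stands alone under several compartments. The mitochondrial sum, with all of Prdx5 counted in it, is the largest either way, at 736 ± 8.51 and 446 ± 0.560 TPM.

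Between the libraries none of the 10 genes lay at least 2-fold apart, where 0.568% of the 12492 genes averaging 50 or more counts did, and none reached a log2 ratio of 0.32 in either direction, where 11.5% of those genes did. At either threshold a count of 0 among 10 genes is near the background. With 1 library on each side there is no test.

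The median absolute log2 ratio, replicate 2 over replicate 1, was 0.07 over the 10 genes and 0.11 over all genes tested, after scaling by TMM. The largest was that of Cat, at -0.22 or 0.860-fold with a 95% counting interval of 0.830 to 0.892. Gpx3 lay at -0.14 and Sod1 at -0.12, and Sod3 was the highest in replicate 2, at 0.20 or 1.15-fold with an interval of 1.02 to 1.30. The counting interval lay below 1 for 6 genes, above 1 for Sod3 alone, and held 1 for Gpx1, Prdx6 and Sod2. How often it leaves out 1 over all genes tested is not given, so these counts show nothing particular to the 10 genes.

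The authors' credibility ranges of the TPM did not overlap between libraries for Cat, Gpx3 and Sod3 and overlapped for the other 7 genes. The share of all genes with ranges that do not overlap is not given, so this does not set Cat, Gpx3 and Sod3 apart. Intervals and ranges cover counting or assignment error only, not variation between animals. Scaling by spike-in totals shifts all genes alike. It moved the median of all genes to 0.21 and turned the sign of 8 of the 10 ratios, which then ran from 0.00 for Cat to 0.42 for Sod3.

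Markers of other cells moved between the same libraries. Of the 4 smooth muscle markers, 4 were higher in replicate 2 by a log2 ratio of at least 0.32, with a summed level of 38.6 TPM in replicate 1 and 72.5 TPM in replicate 2. The 5 atrial markers summed to 1030.1 and 1696 TPM, with 4 of them past that ratio, and the 4 adipocyte markers to 17.9 and 27.3 TPM, with 3 past it. The other adipocyte marker, Lep, was lower in replicate 2, at 0.0704 and 0.0302 TPM from 9 and 3 counts, under the count minimum. Over all genes tested, 11.5% lay past that ratio in either direction. The 6 fibroblast markers summed to 147 and 168 TPM and did not move alike. Col1a1, Lum and Postn were higher by 0.56, 0.57 and 0.66, while Pdgfra, Dcn and Tcf21 lay at 0.10, 0.03 and -0.11. The 7 erythroid markers summed to 2110.4 and 2544 TPM, with 0 of the 6 tested past a log2 ratio of 0.32. Slc4a1, at 0.43 from 11 and 14 counts, was under the count minimum. The 6 endothelial markers summed to 178 and 172 TPM with Vwf lower by 0.40 on the log2 scale. No marker of these 6 lists was at 0 in either library. Their part in the differences of Sod3, Cat and the other genes was not tested.

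**Figure D4:**
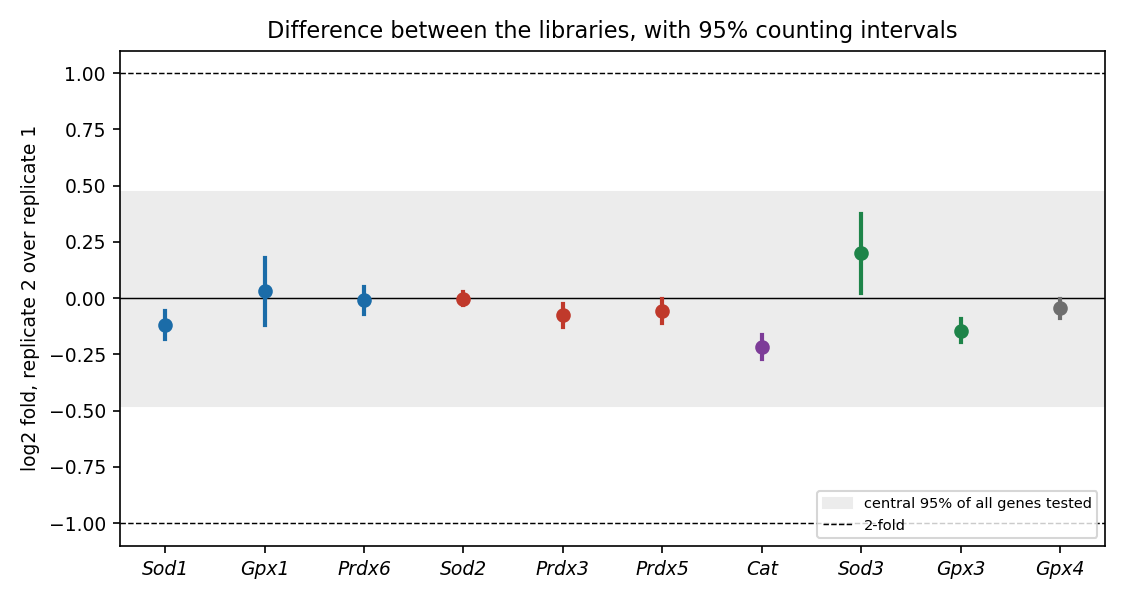
Log2 fold of each gene, replicate 2 over replicate 1, after TMM scaling, with 95% counting intervals as vertical lines, the central 95% of all 12492 genes tested as a grey band and 2-fold as dashed lines. All 10 points lie inside the band, from -0.22 for Cat to 0.20 for Sod3.

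The genes that supply and accompany these enzymes were followed in 12 lists of 109 genes. At least 1 TPM in both libraries was reached by 100 of them. Of the 101 with a mean count of at least 50, 1 was 2-fold higher in replicate 2 and 0 were 2-fold lower, while 3 were higher and 3 lower by a log2 ratio of at least 0.32. Over all 12492 genes tested, 0.568% were 2-fold apart and 11.5% passed a log2 ratio of 0.32 in either direction. A count of 1 among 101 at 2-fold is near that background. The single gene past 2-fold was Tfrc, the transferrin receptor, at 6.92 and 14.5 TPM with a log2 ratio of 1.04.

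Of the peroxiredoxins and the thioredoxin system 10 of 10 genes were detected, the highest being the cytosolic peroxiredoxins Prdx2 (220.0 ± 3.78 TPM) and Prdx1 (167 ± 11.4 TPM) and the thioredoxin inhibitor Txnip (110.5 ± 1.56 TPM). In the alignment-based tables both peroxiredoxins lay above the gene level of Prdx6 and Prdx3 and below that of Prdx5. Prdx2 lay above Prdx5 in the direct tables, at 283 and 286 TPM. Prdx2 is also abundant in red cells, whose globin transcripts were present.

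NADPH, on which the reductases of glutathione and thioredoxin depend, is made in mitochondria by isocitrate dehydrogenase and the transhydrogenase. Idh2 (768 ± 23.7 TPM) stood above each of the 10 antioxidant genes, followed by Nnt (218 ± 7.65 TPM) and the malic enzyme Me3 (45.1 ± 2.78 TPM), and 8 of 8 genes of NADPH supply were detected. Nnt stood lower in the direct tables, at 96.5 and 121 TPM.

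Of the glutathione system 9 of 10 genes were detected, led by the glutaredoxins Glrx3 (49.4 ± 2.10 TPM), Glrx2 (26.7 ± 1.30 TPM) and Glrx5 (24.9 ± 1.37 TPM). All 12 glutathione transferases were detected, with Gstm1 (154 ± 9.53 TPM), Gstp1 (138 ± 4.64 TPM) and Mgst3 (118 ± 6.80 TPM) highest. Of the 5 other glutathione peroxidases only Gpx8 (12.8 ± 1.33 TPM) and Gpx7 (1.85 ± 0.198 TPM), both of the endoplasmic reticulum, passed 1 TPM, and Gpx2, the gut enzyme, was at 0.0302 TPM and 0. Each of these lay below Gpx1.

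Selenoprotein synthesis, which Gpx1, Gpx3 and Gpx4 need, had 8 of 9 genes detected, led by the selenium carrier Selenop (109 ± 2.19 TPM), Pstk (13.3 ± 2.05 TPM) and Sephs2 (11.2 ± 1.60 TPM), enzymes that make selenocysteine and its selenium donor. Of other selenoproteins 9 of 10 were detected, with Selenow (72.2 ± 6.35 TPM), Msrb1 (59.3 ± 5.28 TPM) and Selenof (47.2 ± 4.52 TPM) highest. Gpx4 exceeded each of these selenoprotein genes, and Gpx3 lay near Selenop.

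Metal and cofactor supply includes heme for Cat, and 8 of 9 genes were detected. The heme enzymes Alas1 (139 ± 26.2 TPM) and Fech (66.1 ± 0.456 TPM) and the carrier Slc25a39 (62.3 ± 1.30 TPM) were highest. Of the list of sources of superoxide and peroxide 8 of 10 genes were detected, among them xanthine dehydrogenase Xdh (48.7 ± 12.2 TPM). The list also takes in the protein disulfide isomerase P4hb (79.4 ± 4.28 TPM), a partner of a peroxide-forming oxidase rather than a source itself.

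The list of Nrf2 control and targets was drawn around the pathway that raises many antioxidant genes under stress, and 10 of 10 genes were detected. The highest were Sqstm1 (152 ± 8.78 TPM), Cul3 (38.6 ± 0.738 TPM) and Hmox2 (24.2 ± 0.495 TPM). Hmox2 is a constitutive heme oxygenase and not a classical Nrf2 target, and the inducible Hmox1 stood at 3.29 ± 0.361 TPM. Of the ferroptosis genes that act beside Gpx4, 8 of 8 were detected, with the ferritin chains Fth1 (1016 ± 29.4 TPM) and Ftl1 (79.5 ± 8.28 TPM) and the phospholipid enzyme Lpcat3 (11.7 ± 1.13 TPM) highest.

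**Figure D5:**
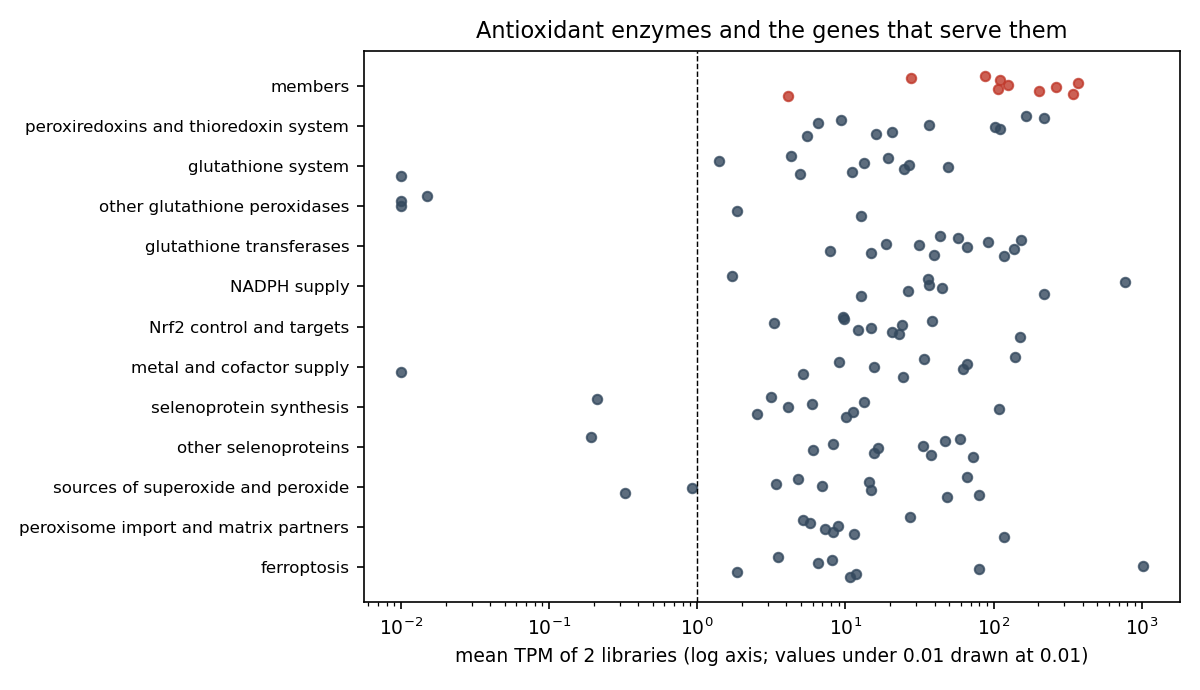
Mean TPM of 2 libraries (log axis, values under 0.01 drawn at 0.01) of the 10 antioxidant genes (red) and of the genes of 12 related lists (dark), 1 point per gene, with 1 TPM as a dashed line. The median of the 10 genes is 118.7 TPM, and Fth1 and Idh2 lie above all of them.

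Promoter windows of 300 bases from RefSeq (GRCm38.p6) were given for 8 of the 10 genes and not for Sod3 and Prdx6. The antioxidant response element TGACNNNGC, which Nrf2 binds, was found on either strand in 1 of the 11 windows of these genes, a window of Sod1, against 12.4% of 32851 windows in all. The Sp1 motif GGGCGG was found in 10 of the 11 windows, against 35.7% of all windows, CCAAT in 7, against 37.4%, and TATAAA in 2, of Prdx3 and Sod1, against 13.6%. A match describes letters in this window only, and factor binding was not measured.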

How the data were processed

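Per the file headers and notes, the authors deposited per library 1 table of genes and 1 of transcripts from transcriptome alignments, and 1 of transcripts straight from the reads (the direct table), on mm10 with GENCODE M21. Deposited expected counts (the direct tables call them estimated counts) are not normalized. TPM was deposited scaled over genes and spike-ins, with credibility bounds, and so was the percent that each transcript holds of its gene. Aligner, quantifier, versions and use of strand in counting are not given in the sources used here.

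TPM was rescaled to endogenous genes. Spike-ins held 0.412% and 0.357% of counts. Expected counts were rounded and scaled by TMM in edgeR 4.0.16 (R 4.3.3), with a prior count of 2 in log2 ratios. Differences were counted at 2-fold among genes averaging 50 or more counts, with exact 95% counting intervals. The log2 ratios were checked by their medians on simulated data with the same spread for every gene. That check does not test the 2-fold calls in these libraries. Other steps used Python 3.11.15, pandas 2.3.3, scipy 1.17.1 and matplotlib 3.10.9. All 55536 gene identifiers matched the annotation. Transcript sequences and the principal coding transcript of each gene (its APPRIS tag) came from GENCODE M21.

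The genes named were the 10 enzymes, the 3 highest of each list with any gene 2-fold apart, transcripts with at least 5% of a gene, and genes sharing 31-base words. Lesser sharers of words are not named. One gene that this rule takes in is not reported here. Gpx4-201 and Hmox1 were named after their values were seen. Members and lists were chosen with earlier results of these data known. Alternatives were DESeq2 1.42.0 size factors, library size, spike-in totals, other minima, prior counts and folds, direct tables, posterior means, and single libraries. Values over coding transcripts and over the principal transcript's length were added after seeing the data.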

Additional observations from a re-analysis of the deposited data

How the results depend on the processing

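The count of 0 genes at 2-fold was unchanged by other scalings, count minima, the direct tables and lower fold thresholds. The median level of 118.7 TPM was 99.8 over coding transcripts and 105.8 at the principal transcript's length. In the direct tables the share of protein-coding TPM was 0.448% in place of 0.486%, the cytosolic sum 378 TPM, the mitochondrial 674, Cat 74.6 and Gpx4 338. Posterior means gave 330.6 TPM for the cytosolic and 722 for the mitochondrial sum, and TPM as deposited gave 334.8 for the cytosolic. Over coding transcripts these sums were 246 and 446 TPM, and Gpx4 came to 298. These cytosolic shifts are set against an SD of 0.809 TPM. The causes were not tested.

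The main transcript was the same in both kinds of table for 8 of 10 genes, all but Gpx1 and Prdx5, and for 9 when ranked by count. The log2 ratio changed sign for 8 genes under spike-in scaling, 2 under library size, 1 under DESeq2 size factors and 1 in the direct tables. No paired analysis was possible because the libraries form 1 group. With n = 2 and a shared donor identifier, no spread between animals could be estimated, and Sod3 and Gpx1 rest on 526 to 771 counts per library.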
